A study of Mus musculus with 22 samples.

Results

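The unfolded protein response of the endoplasmic reticulum (ER) was followed here through 35 named genes, of 23119 genes counted, in the striatum of mice that had taken the opioid oxycodone. The members were taken from a list of gene symbols matched to the Ensembl rows of the count table, and all 35 were found. The list was chosen with earlier results of these data known. They comprise 10 ER chaperones and cofactors, 6 disulfide isomerases and lectin chaperones, 8 genes of ER-associated degradation, 5 sensors and transcription factors, 5 outputs of the PERK and ATF4 branch, and Sec61b, a subunit of the translocation channel. All 35 passed the filter on low counts in each comparison. The animals were male C57BL/6J mice. Treated mice infused themselves with oxycodone at 0.25 mg/kg per infusion in sessions of 4 h per day for 14 days, and each control received yoked saline on the same schedule. Total RNA was depleted of ribosomal RNA and sequenced from ventral striatum (6 oxycodone and 6 saline libraries) and from dorsal striatum (5 oxycodone and 5 saline libraries). Nothing in the labels ties a library to 1 mouse or to a pool, so p-values measure the spread between these libraries. Dorsal oxycodone libraries 2 and 3 share 1 number in their titles, as do dorsal saline libraries 2 and 3, and the labels do not say whether they are separate animals. In whole tissue, fewer cells of a type and less RNA per cell cannot be told apart.

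Secreted and membrane proteins fold in the ER with the help of chaperones. When unfolded protein builds up, 3 membrane sensors respond. IRE1 (Ern1) splices the messenger RNA of Xbp1, ATF6 (Atf6) is cut in the Golgi to free a transcription factor, and PERK (Eif2ak3) slows translation while favouring that of Atf4. The first pair of branches raises chaperone and degradation genes, and the PERK branch raises Ddit3 (CHOP) and genes of amino acid metabolism. Total counts per gene do not show Xbp1 splicing, ATF6 cleavage or PERK phosphorylation. Neurons of the striatum that carry dopamine receptors also secrete neuropeptides, which pass through the same folding machinery.

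Library totals were 8408829 to 10007992 counts in ventral oxycodone, 9172185 to 11000345 in ventral saline, 13797075 to 17836414 in dorsal oxycodone and 11314079 to 21921963 in dorsal saline samples. Members had between 4 counts (Trib3 in a ventral saline library) and 13822 counts (Hsp90b1 in a dorsal saline library). The sixth library of each ventral group stood apart. In the sixth ventral oxycodone library, markers of dorsal striatum summed to 2134 CPM (counts scaled to a common library size with TMM factors), against 798 to 1028 in the other 5. The sixth ventral saline library had 5.75 CPM of Drd1 and 3.68 CPM of Drd2, the dopamine receptors that define the projection neurons of the striatum, and its markers of glutamatergic neurons summed to 1608 CPM, against at most 398 in the other 5. The medians of the 6 ventral saline libraries were 157 CPM for Drd1 and 126 CPM for Drd2. That sixth saline library had 89.9 CPM of ventral striatum markers, against 441 to 590 in the other 5. The same markers summed to 149 CPM in the sixth ventral oxycodone library, against 333 to 552 in the other 5. Both libraries go against the ventral striatum label, the saline library also in the 2 dopamine receptors. The main ventral fits include both, so ventral results are also given without them. Ventral and dorsal libraries differed in depth and in the mitochondrial share of their counts (5.98% to 9.25% in ventral and 2.93% to 4.12% in dorsal libraries), and region and library series cannot be told apart. The strand setting of the counting is not given in the sources used here. Exons of 11 members share bases with another annotated gene, with the largest share in Hsp90b1 (10.3%), and counts over those bases are uncertain.

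Many chaperone genes carry the ER stress response element, which is bound by ATF6 with NF-Y and by XBP1. Its sequence is CCAAT, then any 9 bases, then CCACG. It was searched on both strands from 250 bases before to 50 bases after the transcription start in RefSeq promoters (GRCm38.p6), which held 30 of the 35 members. Of those, 9 members (30%) carried an exact match, against 37 of 27025 genes (0.137%) and 39 of 32851 promoter windows (0.119%). These were Hspa5, Hsp90b1, Calr, Canx, Pdia6, Dnajc3, Creld2, Derl3 and Syvn1, and Hsp90b1 carried the element on 2 places. The 170 bases before the start are shown for the 6 of them with the largest fitted difference in ventral striatum, so that the element can be read in its setting. Each is given 5′ to 3′ on the strand of the gene, with the CCAAT and CCACG ends of the element in capitals. In Hspa5 and Pdia6 the element reads forward, while in Derl3, Creld2, Calr and Hsp90b1 it lies on the opposite strand and reads as CGTGG before ATTGG.
Derl3 (chr10:75893228-75893397, plus strand): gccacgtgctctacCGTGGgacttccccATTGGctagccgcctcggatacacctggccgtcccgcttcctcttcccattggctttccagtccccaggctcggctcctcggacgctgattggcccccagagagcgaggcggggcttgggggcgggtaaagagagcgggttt
Hspa5 (chr2:34771920-34772089, plus strand): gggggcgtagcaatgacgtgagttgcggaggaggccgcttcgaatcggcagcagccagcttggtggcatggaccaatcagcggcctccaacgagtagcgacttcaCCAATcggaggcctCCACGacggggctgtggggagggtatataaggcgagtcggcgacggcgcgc
Pdia6 (chr12:17266419-17266588, plus strand): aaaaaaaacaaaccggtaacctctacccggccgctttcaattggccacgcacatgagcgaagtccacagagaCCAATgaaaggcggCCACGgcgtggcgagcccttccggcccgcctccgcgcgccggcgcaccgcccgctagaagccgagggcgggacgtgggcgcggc
Creld2 (chr15:88819476-88819645, plus strand): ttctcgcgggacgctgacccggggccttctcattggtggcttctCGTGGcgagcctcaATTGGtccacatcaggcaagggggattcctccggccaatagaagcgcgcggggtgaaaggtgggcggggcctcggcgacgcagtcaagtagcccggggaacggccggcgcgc
Calr (chr8:84846932-84847101, minus strand): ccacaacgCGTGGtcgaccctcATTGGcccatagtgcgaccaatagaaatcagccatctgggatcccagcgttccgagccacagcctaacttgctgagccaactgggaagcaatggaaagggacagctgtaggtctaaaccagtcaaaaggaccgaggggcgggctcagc
Hsp90b1 (chr10:86705445-86705614, minus strand): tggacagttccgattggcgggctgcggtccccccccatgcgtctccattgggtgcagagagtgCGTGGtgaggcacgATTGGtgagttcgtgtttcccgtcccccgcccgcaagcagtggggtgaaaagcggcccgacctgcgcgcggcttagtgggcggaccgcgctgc
The element ended 47 bases before the annotated start in Hspa5 and 138 bases before it in Derl3, and the second element of Hsp90b1, which lies farther upstream at 212 to 194 bases before the start, is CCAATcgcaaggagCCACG. The elements of the 3 members not shown were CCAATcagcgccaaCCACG in Dnajc3, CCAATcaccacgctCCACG in Canx and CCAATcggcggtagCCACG in Syvn1. An ATF4 site, TGATGAAAC, was found in the window of Asns, 23 to 15 bases before its start, and in that of no other member, against 0.229% of all genes. The UPR element TGACGTGG (in 0.714% of genes) and the ATF4 site TGATGCAAT (in 0.222% of genes) were in none of the 30 windows. All starts named here are those of RefSeq. In GENCODE M21 the Hspa5 gene begins at chr2:34771970, so its element (chr2:34772025-34772043) lies inside that annotated gene. A match is a description of the sequence, and binding was not measured.

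In ventral striatum, the members' values with oxycodone were read beside those of all genes. As the members were chosen with earlier results of these data known, this describes the set and does not test it. All 16 chaperones, isomerases and lectins had fitted values above 0 with oxycodone, led by Sdf2l1 (1.97-fold), Hspa5 (1.67-fold) and Pdia4 (1.58-fold). Outside those roles, Xbp1 was at 1.48-fold, and Derl3, from low counts, had a log2 change of 0.85. In the GENCODE M21 annotation of GRCm38, 4 of these genes lie at chr2:34771970-34777547 (Hspa5), chr11:5520659-5525893 (Xbp1), chr6:47796141-47813430 (Pdia4) and chr16:17130138-17132383 (Sdf2l1). No member passed the main test, edgeR's quasi-likelihood test with Benjamini-Hochberg adjustment over 14116 genes, which called 0 genes (0%). DESeq2 called 6 members, all higher, among 38 of 14051 genes (0.27%), and limma-voom called 4, all higher, among 61 of 14116 genes (0.432%). At an unadjusted p under 0.05 in edgeR, 16 of 35 members were higher and 0 lower, while 9.13% of all genes passed in either direction and 4.94% were higher. The fitted log2 change was positive in 28 of 35 members against 49.1% of all genes, with a median of 0.20 against -0.0033 over all genes. Without the sixth libraries, 28 members were positive and 15 passed the unadjusted threshold, all higher, with a median of 0.15, while 10.4% of all genes passed and 5.19% were higher. In edgeR the changes were then 1.06 for Sdf2l1, 0.64 for Hspa5, 0.55 for Pdia4 and 0.50 for Xbp1, with adjusted p-values of 0.132, 0.132, 0.132 and 0.104. Those of Pdia6 and Manf were 0.42 and 0.39, with adjusted p-values of 0.243 and 0.253. Under the adjusted tests without the sixth libraries, which were chosen after seeing the data, DESeq2 called 5 members among 95 genes (0.675%) and limma-voom 5 among 68 genes (0.482%), all higher. By both tools these were Hspa5, Sdf2l1, Pdia4, Xbp1 and Atf6, while Pdia6 and Manf no longer passed DESeq2 (adjusted p-values of 0.0521 and 0.0756).

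**Figure D1:**
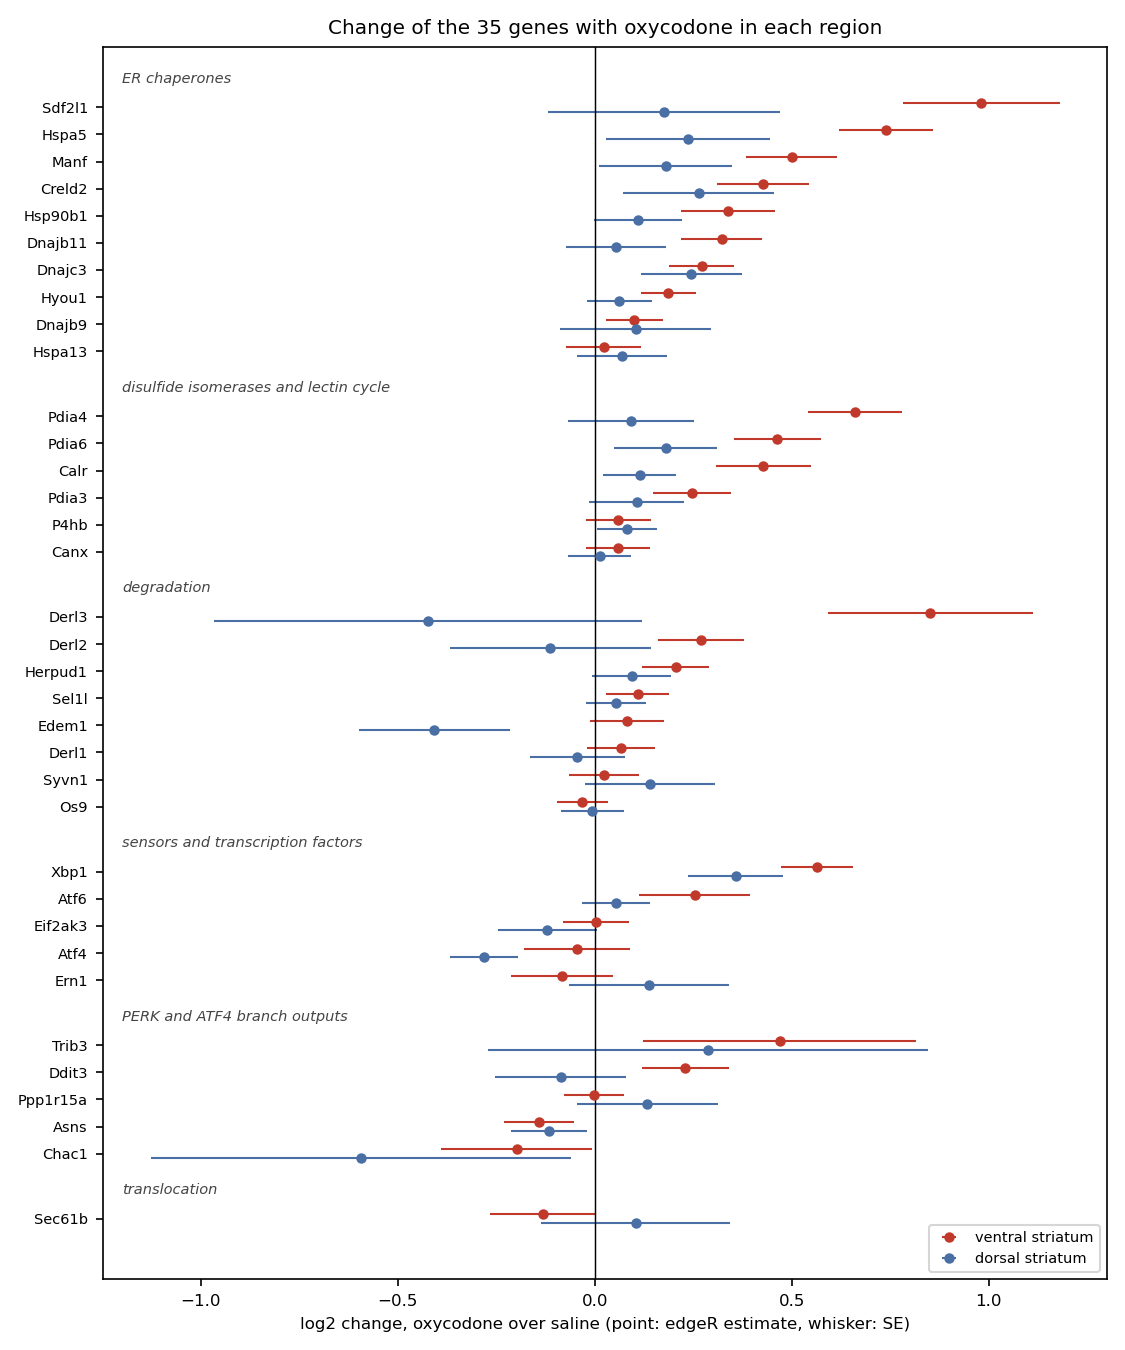
Log2 change with oxycodone over saline (x axis) for each of the 35 genes, grouped by role and ordered by the ventral value, in ventral striatum (red) and dorsal striatum (blue). Points are edgeR estimates and whiskers are standard errors. The ventral points of all chaperones, isomerases and lectins lie right of 0, and those of the PERK and ATF4 branch outputs lie on both sides of it.

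Among the ER chaperones, Hspa5 (BiP), the abundant Hsp70 chaperone that also holds the 3 sensors inactive, had 362 to 583 CPM (median 459.9) in ventral oxycodone libraries and 243 to 325 CPM (median 283) in ventral saline libraries. Every oxycodone library lay above every saline library. Its log2 change was 0.74 ± 0.12 (SE), with an adjusted p of 0.237 in edgeR, 8.84e-05 in DESeq2 and 0.020 in limma-voom. Groups that do not overlap in this direction were seen for 4 members (Hspa5, Pdia4, Pdia6 and Xbp1) and for 0.312% of all genes tested. Sdf2l1, a cofactor of the BiP complex, had 5.01 to 11.4 CPM (median 9.06) in oxycodone libraries and 3.68 to 6.13 CPM (median 4.03) in saline libraries. These levels rest on low counts, 44 to 114 per oxycodone library and 34 to 65 per saline library. Here 5 of 6 oxycodone libraries were above all saline libraries, and the second oxycodone library was among the saline values. The change was 0.98 ± 0.20, with an adjusted p of 0.262 in edgeR, 0.0101 in DESeq2 and 0.038 in limma-voom. Manf, a small ER protein that is secreted and can protect dopamine neurons, had 45.8 to 73.0 CPM (median 58.9) in oxycodone libraries and 37.4 to 48.9 CPM (median 39.6) in saline libraries. The groups overlapped through oxycodone libraries 2 and 4, and the change of 0.50 ± 0.12 had an adjusted p of 0.329 in edgeR, 0.0339 in DESeq2 and 0.068 in limma-voom.

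The other 7 chaperones and cofactors had positive fitted values too, and none passed any of the 3 adjusted tests. Creld2, an ER protein induced by ER stress, averaged 21.6 ± 3.27 CPM in oxycodone and 16.2 ± 2.21 CPM in saline libraries (SD, n = 6 each). Hsp90b1 (GRP94), the Hsp90 chaperone of the ER, averaged 636 ± 136 CPM in oxycodone and 506 ± 31.7 CPM in saline libraries, so that the spread was wider with the drug. The co-chaperones Dnajb11 and Dnajc3 had log2 changes of 0.32 ± 0.10 and 0.27 ± 0.08, and Hyou1 (GRP170), the exchange factor of BiP, one of 0.19 ± 0.07. Dnajb9 and Hspa13 had the smallest values, 0.10 and 0.02. Over the 10 genes the median was 0.33, and 8 had an unadjusted edgeR p under 0.05.

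The disulfide isomerases and lectin chaperones divided in their values. Pdia4 (ERp72), which forms and shuffles disulfide bonds, had 114 to 191 CPM (median 139) in oxycodone libraries and 87.8 to 102 CPM (median 90.2) in saline libraries. No oxycodone library overlapped a saline library, and the change of 0.66 ± 0.12 had an adjusted p of 0.262 in edgeR, 0.000856 in DESeq2 and 0.024 in limma-voom. Pdia6, an isomerase that also binds the sensors, had 100.3 to 156 CPM (median 116) in oxycodone libraries and 79.2 to 100.1 CPM (median 89.8) in saline libraries. The lowest oxycodone library was just above the highest saline library, and the change of 0.46 ± 0.11 had an adjusted p of 0.329 in edgeR, 0.0367 in DESeq2 and 0.067 in limma-voom. Calr (calreticulin), a lectin chaperone and calcium store, averaged 651 ± 129 CPM with oxycodone and 487 ± 51.2 CPM with saline, a change of 0.43 ± 0.12. Its membrane-bound relative Canx (calnexin) averaged 545 ± 62.7 CPM in oxycodone and 526 ± 46.3 CPM in saline libraries, a difference smaller than the spread. P4hb, which also serves collagen hydroxylation, had a change of 0.06 ± 0.08, and Pdia3, the isomerase that works with both lectins, one of 0.25 ± 0.10. The median of the 6 was 0.34, and 4 of them had an unadjusted p under 0.05.

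**Figure D2:**
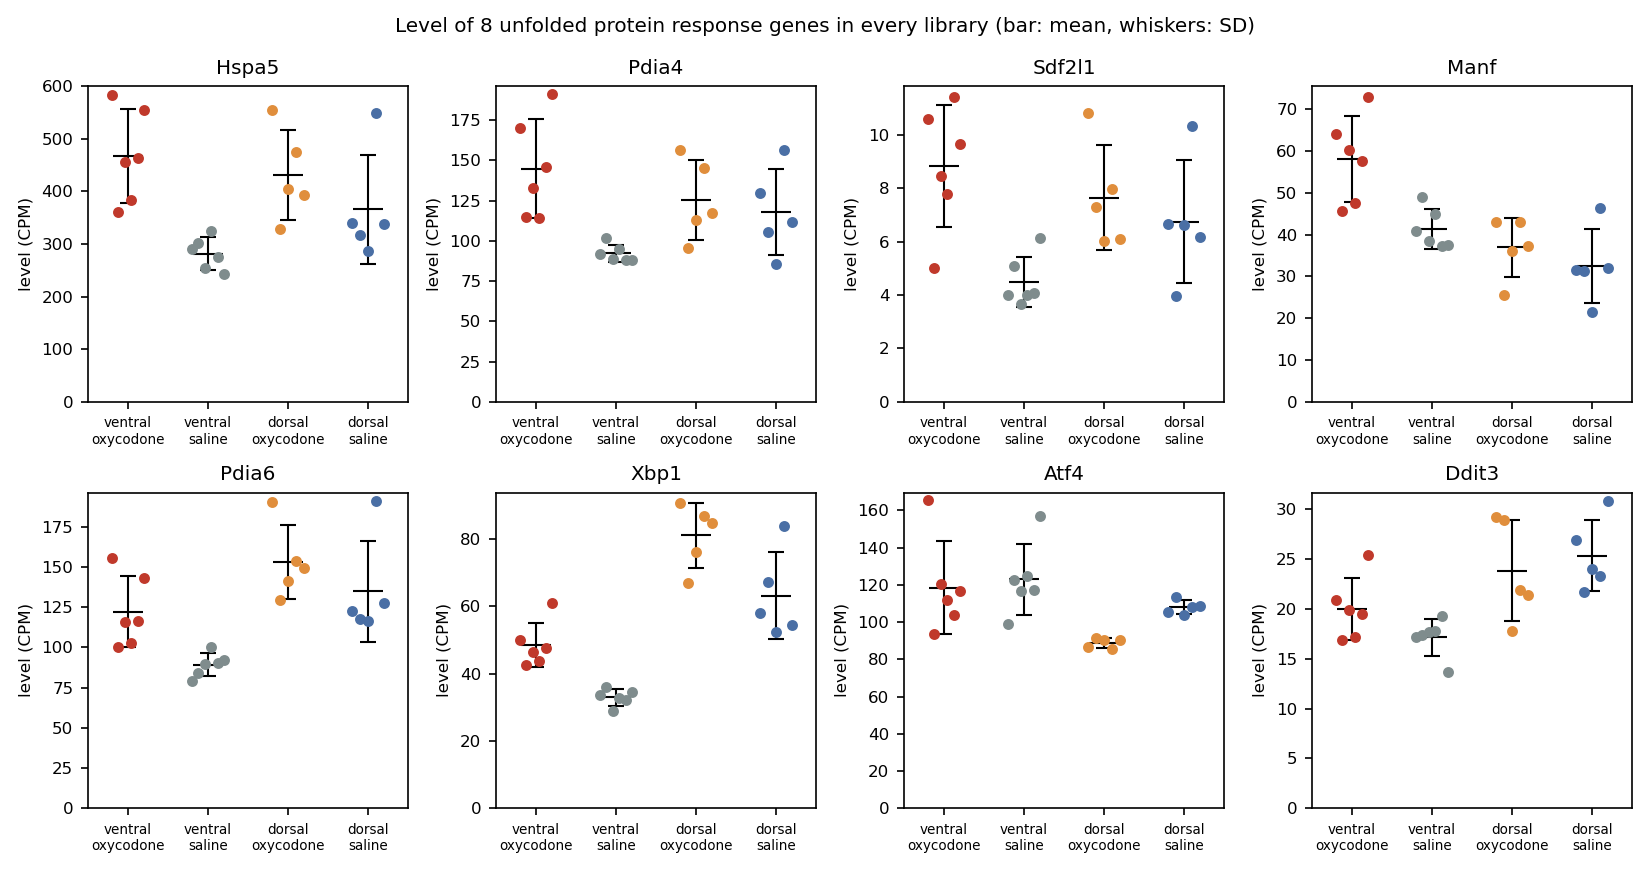
Level in CPM (y axis, from 0) of 8 genes in every library, with the 4 groups on the x axis, ventral oxycodone, ventral saline, dorsal oxycodone and dorsal saline. Points are libraries, bars are means and whiskers are SD. Ventral oxycodone libraries of Hspa5, Pdia4, Pdia6 and Xbp1 lie above all ventral saline libraries, and dorsal oxycodone libraries of Atf4 lie below all dorsal saline libraries.

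Of the 8 degradation genes, 7 had positive values with a median of 0.09, and 0 were called by edgeR, DESeq2 or limma-voom. Derl3, a derlin of the channel that moves proteins out of the ER, had the largest change, 0.85 ± 0.26, from low counts: 17 to 47 counts in oxycodone libraries and 11 to 27 counts in saline libraries. In CPM it averaged 3.43 ± 0.92 with oxycodone and 1.92 ± 0.68 with saline, and the groups overlapped. Derl2 and Herpud1, which organises the degradation complex, had changes of 0.27 ± 0.11 and 0.20 ± 0.09, each with an unadjusted p under 0.05. The ubiquitin ligase Syvn1 (HRD1), its partner Sel1l, the mannosidase-like Edem1, Derl1 and the lectin Os9 had values from -0.03 to 0.11. For each of these the groups overlapped.

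Of the 3 sensors, Ern1 had 13.8 to 22.2 CPM (median 20.2) in ventral oxycodone libraries and 17.5 to 25.4 CPM (median 19.4) in saline libraries. Eif2ak3 had 39.9 to 48.0 CPM (median 45.4) in oxycodone libraries and 39.1 to 51.9 CPM (median 44.6) in saline libraries. Both overlapped between the groups, although 2 oxycodone libraries had less Ern1 than any saline library, and the log2 changes were -0.08 ± 0.13 for Ern1 and 0.0032 ± 0.083 for Eif2ak3. Atf6 had 116 to 173 CPM (median 124) with oxycodone and 93.2 to 158 CPM (median 104) with saline, a change of 0.25 ± 0.14 with an adjusted p of 0.601 in edgeR. In both groups the sixth library was the highest by far, and without both the change was 0.28 with an adjusted p of 0.196. Xbp1, the transcription factor of the IRE1 branch and itself a target of ATF6, had 42.5 to 60.9 CPM (median 47.0) in oxycodone libraries and 28.8 to 36.1 CPM (median 33.2) in saline libraries. Every oxycodone library was above every saline library. The change of 0.56 ± 0.09 had an adjusted p of 0.237 in edgeR, 0.00022 in DESeq2 and 0.0176 in limma-voom. Atf4, the transcription factor of the PERK branch, overlapped between the groups, with 93.5 to 166 CPM (median 114) in oxycodone and 99.0 to 157 CPM (median 120.0) in saline libraries.

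The outputs of the PERK and ATF4 branch had a median change of -0.0022, and 0 of 5 had an unadjusted edgeR p under 0.05. DESeq2 and limma-voom called none of them. Ddit3, the proapoptotic factor CHOP, had 16.9 to 25.4 CPM (median 19.6) with oxycodone and 13.7 to 19.2 CPM (median 17.5) with saline. The change was 0.23 ± 0.11 with an adjusted edgeR p of 0.557, and without the sixth libraries, which held the highest oxycodone and the lowest saline value, it was 0.08. Asns (asparagine synthetase), Ppp1r15a (GADD34, which reverses the translational block) and Chac1, which degrades glutathione, had changes of -0.14 ± 0.09, -0.0022 ± 0.077 and -0.20 ± 0.19. The pseudokinase gene Trib3 had a change of 0.47 ± 0.35 from at most 27 counts. Sec61b averaged 9.07 ± 2.24 CPM with oxycodone and 10.0 ± 0.34 CPM with saline, and only the first oxycodone library was above the saline libraries while the other 5 were below them.

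Averaged over all 35 members, the log2 deviation from the saline mean was 0.05 to 0.35 in ventral oxycodone and -0.05 to 0.06 in ventral saline libraries, and the second oxycodone library lay below the fourth saline library. The mean log2 deviation of the 10 chaperones from the saline mean was 0.61, 0.13, 0.37, 0.19, 0.35 and 0.55 in oxycodone libraries 1 to 6, against -0.05 to 0.07 in saline libraries. For the 6 isomerases and lectins, oxycodone libraries 2 and 4 (0.07 and 0.08) lay below the fourth saline library (0.13). The first and sixth oxycodone libraries held the highest value of the region for 14 and 9 members, and oxycodone libraries 2 and 4 for 0. The 35 genes together took 0.387% to 0.538% of the counts in oxycodone libraries and 0.358% to 0.4% in saline libraries. By lane, 12 members had an unadjusted p under 0.05 and were higher in the 8 libraries of lane 1, and 7 did in the 4 libraries of lane 2. The median member change was 0.14 in lane 1 and 0.24 in lane 2. Lane 2 holds the fifth and sixth library of each ventral group, so both sixth libraries are part of it. These lane counts are not set against the share of all genes, and they describe the members only.

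**Figure D3:**
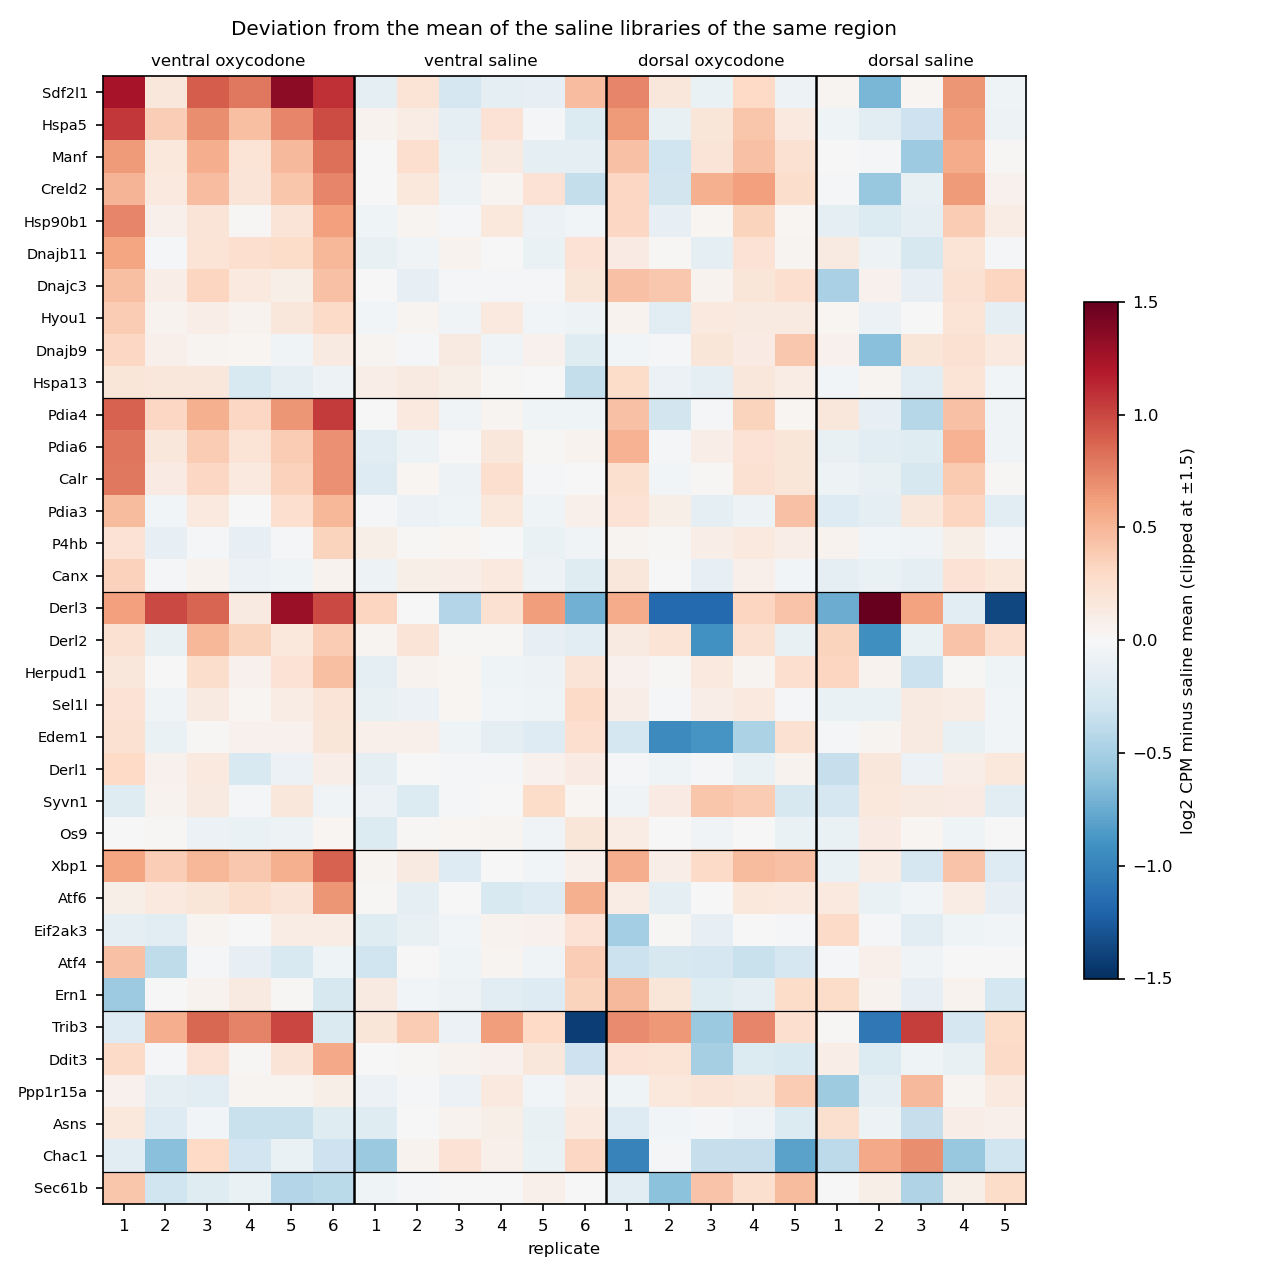
Deviation of each library's log2 CPM from the mean of the saline libraries of its region (colour, red above and blue below, clipped at 1.5), with the 35 genes as rows in the order of the change plot, and the libraries of each group as columns. Horizontal lines separate the roles. Ventral oxycodone columns are red across most chaperone and isomerase rows, with library 2 the palest, and the fourth dorsal saline column is red for the same rows.

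Members with the ER stress response element had a higher median in ventral striatum than those without it. All 9 had positive log2 changes, with a median of 0.43, and 7 had an unadjusted p under 0.05. The 2 others were Canx and Syvn1, at 0.06 and 0.02. The 21 members without the element, meaning no exact match in the window searched, had a median of 0.10, with 14 positive and 7 under the threshold. Near matches and other stretches were not searched. The 5 members with no promoter entry had a median of 0.19. Those without the element include Sdf2l1, Pdia4 and Xbp1, at 0.98, 0.66 and 0.56. They also include all outputs of the PERK and ATF4 branch, so the sets with and without the element differ in role. Among genes outside the set that carry the element, 7 were tested, with values from -0.36 to 0.11 and a median of -0.0175. At that threshold in edgeR, 0 of the 7 were higher and 1 was lower (Zfp57, at -0.36 ± 0.14). The element was thus found both in members with large values and in genes outside the set with lower ones, and the difference between these sets of genes was not tested. In dorsal striatum the 9 members with the element had a median of 0.14.

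**Figure D4:**
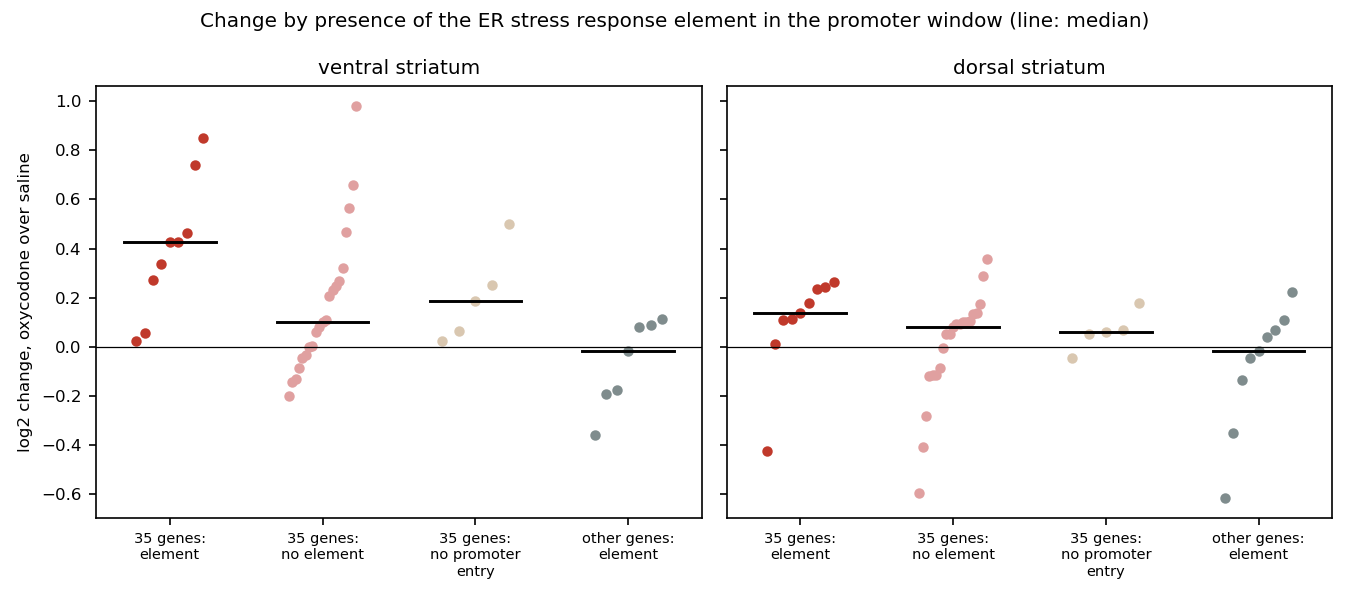
Log2 change with oxycodone over saline (y axis) in ventral (left) and dorsal (right) striatum for members with the ER stress response element, members without it, members with no promoter entry and other tested genes with the element. Points are genes and lines are medians. The median of members with the element is 0.43 in ventral and 0.14 in dorsal striatum.

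Wider ER and stress lists were read beside the members in ventral striatum, where edgeR called 0 of their genes and DESeq2 called 1, a heat shock gene. Of 30 cytosolic and mitochondrial heat shock genes, 27 were positive with a median of 0.26, and 14 were higher and 0 lower at an unadjusted p under 0.05. Hspb1, a small heat shock protein, averaged 10.8 ± 3.67 CPM in oxycodone and 5.21 ± 1.60 CPM in saline libraries, a change of 1.06 ± 0.24 with an adjusted edgeR p of 0.329. Dnaja4 and Chordc1, both partners of Hsp70 or Hsp90, had changes of 0.38 ± 0.10 and 0.45 ± 0.13. The remaining lists had medians close to that of all genes. These were 0.03 over 35 other folding and glycosylation genes, -0.0034 over 28 other degradation genes, 0.0023 over 19 translocation genes, -0.02 over 26 genes of ER to Golgi transport, -0.06 over 40 ATF4 target genes and -0.0056 over 26 other stress genes. Within them, Uggt1, the sensor that returns misfolded glycoproteins to the lectins, was higher in every oxycodone library than in any saline library (162 ± 7.01 against 146 ± 4.73 CPM in saline libraries), and Dnajc10 and Erlec1 were lower in every one than in any saline library. Their adjusted edgeR p-values were 0.407, 0.477 and 0.393. Of all 14116 genes tested, 44 had every oxycodone library above every saline library, and 63 had every one below.

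Summed pituitary markers did not overlap between the ventral groups, and edgeR called 0 of the marker genes there. DESeq2 and limma-voom each called 2 of the 3 pituitary markers tested, both higher, and the 3 had a median change of 1.74. The 9 pituitary markers summed to 13.0 to 66.5 CPM in oxycodone libraries and 4.57 to 11.8 CPM in saline libraries without overlap. Prl, which defines them, had 1.3 to 4.44 CPM in oxycodone and 0.532 to 1.41 CPM in saline libraries. Markers of oligodendrocytes summed to 1294 to 3321 CPM in oxycodone and 454 to 1871 CPM in saline libraries. Without the sixth libraries these were 1294 to 2625 CPM (median 1456) with oxycodone and 1384 to 1871 CPM (median 1680) with saline. Markers of plasma cells, which are rich in these chaperones, summed to 10.1 to 24.0 CPM in oxycodone and 12.6 to 30.3 CPM in saline libraries. Without the sixth libraries the plasma cell sums were 10.1 to 24.0 and 12.6 to 16.3 CPM. Jchain, the defining plasma cell marker, stayed at or below 1.06 CPM in every ventral library. The 10 microglial markers summed to 480.5 to 670 CPM with oxycodone and 423 to 640 CPM with saline, or 480 to 654 and 423 to 527 CPM without the sixth libraries. Blood markers summed to 138 to 803 CPM with oxycodone and 126 to 695 CPM with saline, or 138 to 803 and 126 to 270 CPM without them. The markers of dorsal striatum summed to 798 to 2134 CPM in oxycodone and 744 to 887 CPM in saline libraries. Without the sixth libraries these were 798 to 1028 CPM (median 929) and 744 to 838 CPM (median 819). Over all ventral libraries, 7 of 7 of them were positive. Markers of ventral striatum summed to 149 to 552 CPM with oxycodone and 89.9 to 590 CPM with saline. Without the sixth libraries these were 333 to 552 CPM (median 372) with oxycodone and 441 to 590 CPM (median 455) with saline. Of these 8 markers, 3 were positive and 5 negative over all ventral libraries. Markers of choroid plexus and ependyma were positive in 7 of 7 tested, and summed to 41.2 to 1820 CPM with oxycodone and 23.8 to 58.0 CPM with saline, or 41.2 to 78.5 and 38.9 to 58.0 CPM without the sixth libraries. Those of glutamatergic neurons were negative in 10 of 10 with a median of -0.91, and summed to 79.8 to 511 CPM with oxycodone and 74.8 to 1608 CPM with saline, or 79.8 to 511 and 74.8 to 398 CPM without the sixth libraries. The part of these cells and regions in the members' values was not tested.

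In dorsal striatum, chaperone and isomerase values overlapped between oxycodone and saline libraries, and Atf4 was the member whose groups stood apart. EdgeR called 30 of 14595 genes (0.206%), of which 0 were members, and limma-voom called 32 (0.219%), again with 0 members. DESeq2 called 86 of 14306 genes (0.601%), of which Atf4 was the 1 member. At an unadjusted p under 0.05, 1 member was higher (Xbp1) and 2 were lower (Atf4 and Edem1), while 5.64% of all genes passed and 3.25% were higher. Fitted values were positive in 25 of 35 members, against 47.9% of genes, with a median of 0.09 against -0.0083 over all genes. All 10 chaperones and all 6 isomerases and lectins were positive, with medians of 0.14 and 0.10. With the dorsal libraries that share a title number summed, which leaves 8, edgeR called 40 genes (0.266%) and 0 members, and the median was 0.09. At the unadjusted threshold 1 member was then higher and 1 lower, counts not set against the share of all genes in that fit.

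Atf4 had 86.4, 91.7, 90.3, 85.5 and 90.3 CPM in dorsal oxycodone libraries, and 106, 114, 104, 108 and 109 CPM in dorsal saline libraries. Every oxycodone library was below every saline library, and the values within each group were close. Its log2 change was -0.28 ± 0.09, with an adjusted p of 0.031 in DESeq2, 0.326 in edgeR and 0.222 in limma-voom. No member had every dorsal oxycodone library above every saline library, as 0.843% of all genes had. Every oxycodone library below every saline library was seen for 0.459% of all genes. Ddit3 and Asns, which ATF4 is known to activate, overlapped between the groups. Ddit3 had 29.2, 28.9, 17.7, 21.9 and 21.4 CPM with oxycodone and 26.9, 21.7, 23.9, 23.3 and 30.8 CPM with saline, and Asns averaged 116 ± 7.03 CPM with oxycodone and 125 ± 18.6 CPM with saline (SD, n = 5 each). Of 41 further ATF4 target genes tested, 24 were positive, with a median of 0.09. Among them Lars and Sars, which charge transfer RNAs, were at -0.27 ± 0.09 and -0.20 ± 0.08, and Cebpb, a partner of Atf4 in dimers, at 1.04 ± 0.36. For Lars every oxycodone library lay below every saline library (76.5 ± 6.53 CPM against 92.4 ± 4.95 CPM in saline libraries), with an adjusted edgeR p of 0.492.

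Xbp1 had 90.7, 66.9, 76.0, 86.8 and 84.7 CPM in dorsal oxycodone libraries, and 57.9, 67.2, 52.4, 83.7 and 54.5 CPM in dorsal saline libraries. Of the oxycodone libraries, 3 were above all saline libraries, and the change of 0.36 ± 0.12 had an adjusted p of 0.438 in edgeR, 0.344 in DESeq2 and 0.55 in limma-voom. The fourth saline library was the highest of the saline group. Hspa5 had 554, 329, 404, 475 and 393 CPM with oxycodone and 339, 316, 288, 548 and 337 CPM with saline, where the fourth saline library again exceeded the others, and its change was 0.24 ± 0.21 with an adjusted edgeR p of 0.998. Pdia6, again highest in the fourth saline library among saline libraries, had 191, 129, 141, 154 and 149.5 CPM with oxycodone and 122, 117, 116, 191 and 127 CPM with saline. That saline library was the highest of the region for 9 members. Without it, 8 members were higher and 2 lower at an unadjusted p under 0.05, the changes of Hspa5, Pdia6 and Xbp1 were 0.43, 0.34 and 0.48, and edgeR called 17 genes and 0 members. Of all genes, 6.17% then passed the unadjusted threshold and 3.42% were higher. Those 3 changes were the largest of the 10 fits that each left out 1 dorsal library, and the smallest were 0.13, 0.088 and 0.30. The third saline library was the lowest of the region for 12 members.

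The remaining dorsal values overlapped between the groups. Pdia4 had 156, 95.6, 113, 145 and 117 CPM in oxycodone libraries and 129.5, 106, 85.5, 157 and 111 CPM in saline libraries. Sdf2l1 had 10.8, 7.29, 6.03, 7.96 and 6.09 CPM with oxycodone and 6.66, 3.96, 6.61, 10.3 and 6.17 CPM with saline. Manf had 43.0, 25.7, 36.0, 42.9 and 37.2 CPM with oxycodone and 31.6, 31.2, 21.6, 46.4 and 32.0 CPM with saline. In each of the 3 genes the fourth saline library was the highest saline value. The sensors Atf6, Ern1 and Eif2ak3 had changes of 0.05 ± 0.09, 0.14 ± 0.20 and -0.12 ± 0.12. Atf6 had 159, 133, 146, 164 and 162 CPM in oxycodone and 163, 137, 142, 159 and 135 CPM in saline libraries. Ern1 had 18.8, 15.3, 11.8, 12.1 and 16.3 CPM in oxycodone and 16.3, 14.0, 12.3, 14.0 and 11.2 CPM in saline libraries. Eif2ak3 had 35.8, 51.5, 46.6, 51.0 and 50.2 CPM in oxycodone and 62.0, 50.3, 45.7, 48.5 and 49.3 CPM in saline libraries, and these 3 sensors showed no separation. Edem1, which passes glycoproteins to degradation, averaged 18.7 ± 6.67 CPM with oxycodone and 24.8 ± 1.68 CPM with saline, a change of -0.41 ± 0.19 with an adjusted edgeR p of 0.866. The fifth oxycodone library, at 29.2 CPM, was above all saline libraries, and the other 4 were below them. Blood markers summed to 596 to 1785 CPM in dorsal oxycodone and 410 to 630.5 CPM in dorsal saline libraries. All 6 were positive with a median of 0.90. EdgeR called 1 of them, DESeq2 2 and limma-voom 2, all higher, beside 0.206%, 0.601% and 0.219% of all genes. Microglial markers summed to 728 to 1061 CPM with oxycodone and 708 to 750 CPM with saline. Those of choroid plexus and ependyma summed to 91.5 to 3310 and 396 to 3620 CPM. The part of these cells in the members' values was not tested.

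Whether the effect of oxycodone differed between the regions was tested as dorsal minus ventral effect in 1 model of all 22 libraries. EdgeR called 0 of 14938 genes (0%), DESeq2 and limma-voom called 0 as well, and 4.51% of genes had an unadjusted edgeR p under 0.05. The members' difference was negative in 26 of 35, with a median of -0.15 against 0.0060 over all genes, which means smaller fitted values in dorsal striatum. The 4 members with an unadjusted p under 0.05 were Sdf2l1 (-0.80 ± 0.34), Pdia4 (-0.56 ± 0.21), Hspa5 (-0.49 ± 0.22) and Edem1 (-0.48 ± 0.22), each with an adjusted p of 0.981. Xbp1 had a difference of -0.20 ± 0.16. A difference between regions was thus not shown for any member. Without the fourth dorsal saline library the median was -0.10. In that fit 2 members had an unadjusted edgeR p under 0.05, a count not set against the share of all genes there.

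Levels of the members also differed between the libraries of the 2 regions, and these comparisons use the same libraries as those above. Region and library series cannot be told apart, so each difference below may belong to either. In saline mice edgeR called 6616 of 14433 genes (45.8%), with 23.6% of genes higher in dorsal striatum. Of the members, 16 were called, 11 higher and 5 lower in dorsal striatum, and the share of members called, like that of all genes, was close to 1 in 2. In oxycodone mice it called 6785 of 14375 genes (47.2%), with 23.5% higher in dorsal striatum, and 15 members, 6 higher and 9 lower. Without both sixth ventral libraries, 16 members were called in oxycodone mice (9 higher and 7 lower) among 47.5% of all genes, and 20 in saline mice (14 higher and 6 lower) among 50.7%.

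The isomerase Pdia3 had the lowest dorsal level relative to ventral striatum. It averaged 75.0 ± 12.4 CPM in dorsal and 216 ± 34.6 CPM in ventral oxycodone libraries, and 69.6 ± 11.7 CPM in dorsal and 183 ± 12.4 CPM in ventral saline libraries. Its log2 differences were -1.55 ± 0.12 in oxycodone mice and -1.40 ± 0.10 in saline mice, with adjusted edgeR p-values of 1.02e-07 and 1.42e-07. Dnajb9 (ERdj4), which sends clients to degradation and restrains IRE1, was lower in dorsal striatum by the same test, at -1.08 ± 0.11 in oxycodone mice and -1.08 ± 0.14 in saline mice. Canx was lower in both comparisons as well (-0.45 ± 0.09 and -0.40 ± 0.09).

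Xbp1 was higher in dorsal striatum, with a difference of 0.71 ± 0.11 in oxycodone mice and 0.93 ± 0.12 in saline mice (edgeR's adjusted p-values were 4.29e-05 and 2.44e-05). Derl1 had 44.2 to 49.5 CPM in dorsal and 21.6 to 31.2 CPM in ventral oxycodone libraries, and 37.4 to 53.6 CPM in dorsal and at most 27.6 CPM in ventral saline libraries. Its differences of 0.79 ± 0.10 and 0.91 ± 0.11 passed in both comparisons, as did those of Sel1l, Herpud1 and P4hb, which lay between 0.33 and 0.50. The regions thus differed in opposite directions among members of 1 role, with Pdia3 lower and P4hb higher in dorsal striatum. Ern1 was lower (-0.59 ± 0.14) and Atf6 higher (0.40 ± 0.12) in dorsal striatum of saline mice, with adjusted edgeR p-values of 0.00332 and 0.0172, while in oxycodone mice neither passed (0.0559 and 0.136). Manf and Calr were lower in dorsal striatum of oxycodone mice (-0.68 ± 0.14 and -0.59 ± 0.12), with adjusted edgeR p-values of 0.00118 and 0.000724, against 0.0813 and 0.0522 in saline mice. Pdia6 and Pdia4 were higher in dorsal striatum of saline mice (0.59 ± 0.12 and 0.35 ± 0.12) and at 0.30 ± 0.12 and -0.23 ± 0.15 in oxycodone mice. That these region differences themselves differ between the treatments is the test of the preceding comparison, which no member passed.

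**Figure D5:**
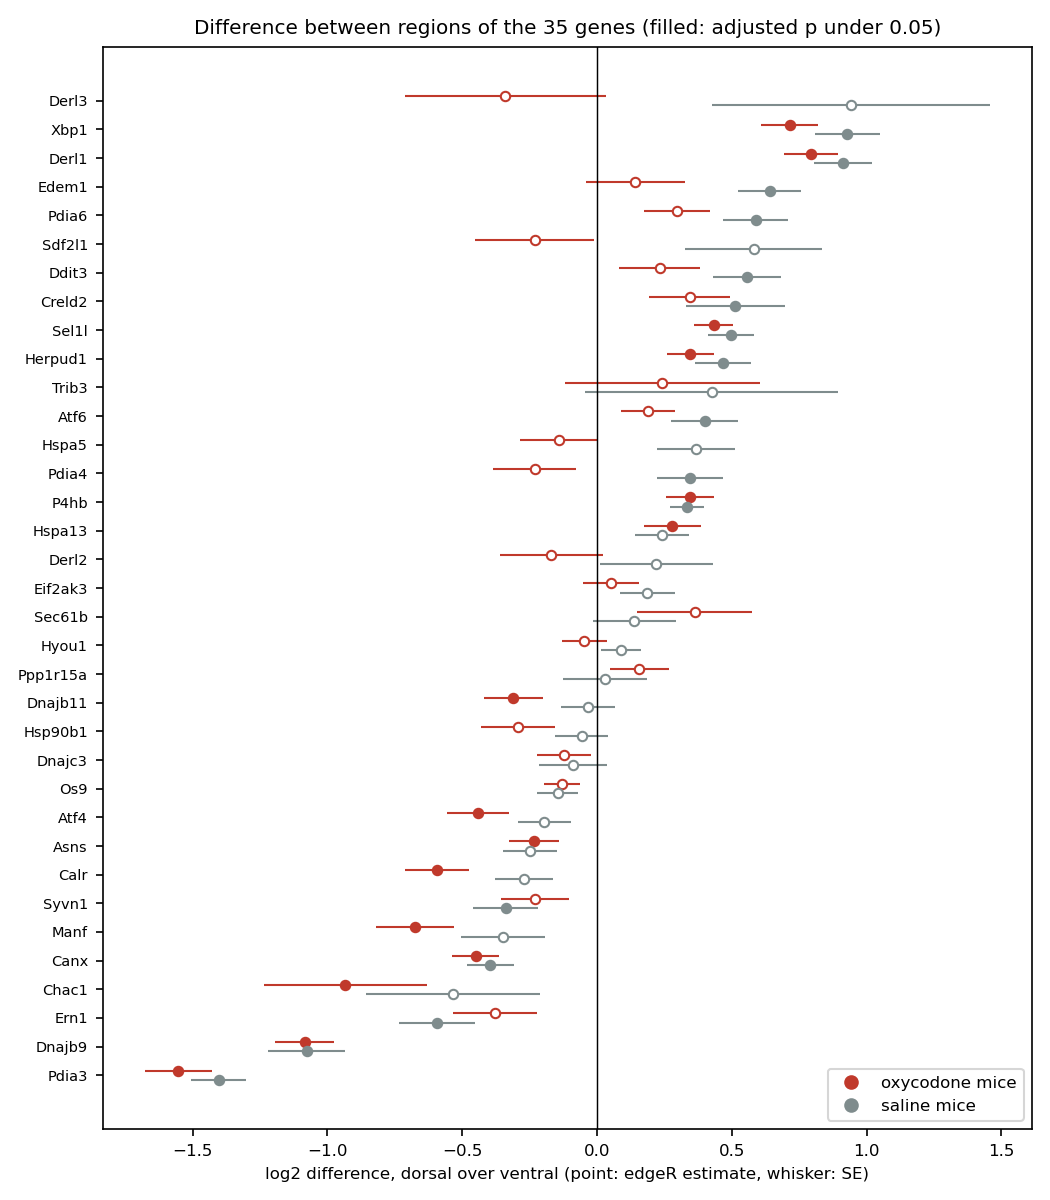
Log2 difference of dorsal over ventral striatum (x axis) for each of the 35 genes, in oxycodone mice (red) and saline mice (grey), ordered by the value in saline mice. Points are edgeR estimates, filled where the adjusted p was under 0.05, and whiskers are standard errors. Pdia3 and Dnajb9 lie farthest left in both, and Xbp1 and Derl1 are the filled points farthest right.

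Per kilobase of exon, Calr was the most abundant member in each of the 4 groups, at 226 CPM per kb in ventral oxycodone, 169 in ventral saline, 152 in dorsal oxycodone and 141 in dorsal saline libraries. Hsp90b1 followed in every group, at 158, 126, 131 and 121 CPM per kb in the same order of groups. Hspa5 was at 110.5 CPM per kb in ventral oxycodone libraries, next to Canx at 116, and at 66.6 in ventral saline libraries, below Canx at 112 and near Os9 at 63.3 and Pdia3 at 58.4. In dorsal libraries Hspa5 was above Canx, at 102 against 86.4 with oxycodone and at 86.5 against 85.7 with saline. The sensors were far less abundant, with Ern1 at 1.66 to 2.48, Eif2ak3 at 7.39 to 8.49 and Atf6 at 12.0 to 16.5 CPM per kb over the means of the 4 groups. Xbp1 ran from 10.2 in ventral saline to 24.9 in dorsal oxycodone libraries, and Trib3, Derl2, Derl3 and Chac1 were at most at 2.35 CPM per kb in any group mean.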

How the data were processed

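Raw counts per Ensembl gene were deposited by the authors as 1 table of 23119 genes and 22 libraries. Per the submitters' processing notes, CASAVA 1.8.2, STAR 2.3 and featureCounts were used, and the builds mm10, GRCm38 and mm9 are named without a role. Counts were tested as deposited with edgeR 4.0.16 (quasi-likelihood, robust, TMM factors, filterByExpr, Benjamini-Hochberg adjustment, threshold 0.05) in R 4.3.3, separately for each comparison. DESeq2 1.42.0 and limma 3.58.1 (voom with quality weights) were alternatives, besides other scaling factors, no filter, lanes, title suffixes and leaving out libraries. Standard errors were derived from the F statistic. Printed levels are CPM with TMM factors over all 22 libraries, and levels per kb use exon lengths of GENCODE M21. Symbols were found for 96% of identifiers. The fits were tested on simulated counts. No pair of libraries within a group agreed within sampling noise (chi-square per degree of freedom at least 2.88). All members could be named, those called by any test or acting as sensors or branch factors in full, and of each wider list the 3 genes with the lowest unadjusted p in a comparison. The members and lists were chosen with earlier results of these data known.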

Additional observations from a re-analysis of the deposited data

Results flagged for a closer look

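In 140 groups of a gene's levels, 13 values stood apart from the rest of their group by the gap to the nearest library, where chance flags about 1 in 20 groups. The sixth ventral saline library held 5 of them. It was highest for Atf6 (158 CPM, others 93.2 to 111), Sel1l (181 CPM, others 137 to 152) and Dnajc3 (66.4 CPM, others 53.8 to 58.4), and lowest for Hspa13 (35.6 CPM, others 45.9 to 50.2) and Ddit3 (13.7 CPM, others 17.2 to 19.2). The sixth ventral oxycodone library was highest for Atf6 (173 CPM, others 116 to 131). The first ventral oxycodone library was highest for Canx (666 CPM, others 495 to 546), Atf4 (166 CPM, others 93.5 to 120.3) and Sec61b (13.4 CPM, others 7.32 to 9.32).

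In dorsal saline libraries, the fourth was highest for Hspa5 (548 CPM, others 288 to 339) and Pdia6 (191 CPM, others 116 to 127), the first was highest for Eif2ak3 (62.0 CPM, others 45.7 to 50.3) and the second was lowest for Dnajb9 (10.1 CPM, others 16.3 to 18.4). None of the dorsal oxycodone values stood apart in this way.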

How the results depend on the processing

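In ventral striatum edgeR called 0 members under every scaling, filter, lane setting and omitted library, while DESeq2 called 6 and limma-voom 4, and each called 5 without both sixth libraries (2 alternatives chosen after seeing the data). The count of members higher at an unadjusted p under 0.05, 16, was 13 to 17 when a library was left out. It was 7 in lane 2 alone, which holds 4 libraries, both sixth libraries among them. These counts are not set against the share of all genes in each fit and describe the members only. In dorsal striatum DESeq2 called 1 member where edgeR called 0. Over all genes there, edgeR called 30, or 58 without robust dispersions, 17 in libraries without the suffix P, 1 in those with it and 1 to 63 when a library was left out (1 without the fifth saline library), and DESeq2 86. In ventral striatum edgeR called 0 genes, DESeq2 38 and limma-voom 61. Some values changed sign, and the cause was not tested. In ventral striatum, Eif2ak3 was -0.00044 with median of ratios factors, -0.011 with library totals, -0.00095 in DESeq2, -0.026 in lane 2 and -0.031 to 0.052 when a library was left out. Ern1 was 0.10 in limma-voom and, without both sixth libraries, 0.014 in edgeR, 0.020 in DESeq2 and 0.12 in limma-voom, and Atf4 without them was 0.037 in edgeR and 0.042 in DESeq2, 0.087 in lane 1 and -0.16 to 0.039 when a library was left out. In dorsal striatum, Ddit3 was 0.14 in the libraries whose titles lack a P (a suffix the labels leave unexplained) and -0.17 to 0.0020 when a library was left out, and Pdia4 was -0.0030 to 0.22 when one was left out. In libraries with the suffix, Sdf2l1 was -0.35 (0.17 in all libraries), Pdia6 -0.052 (0.18 in all) and Eif2ak3 0.064. The labels do not say whether a title number marks 1 mouse in both regions. Same-numbered libraries correlated at -0.076 to 0.31 between the regions, with 1 of 10 over 0.1 and 2 of 10 closest to their own number. Low correlations between 2 tissues cannot decide whether the numbers pair the libraries. With the number as a replicate block, 0 members were called for the difference between regions, 15 in saline mice (14 of the 16 called without it) and 15 in oxycodone mice (12 of the 15). Of the called region differences, 16 fits in saline mice and 32 in oxycodone mice no longer passed under an alternative, without a change of direction. Depth limits Derl3, Trib3 and Chac1, which had 4 to 106 counts per library, and to a lesser degree Sdf2l1, which had 34 to 227.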
